A study of Mus musculus with 2 samples.

Results

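The trefoil factors Tff1, Tff2 and Tff3 and the gastrokines Gkn1, Gkn2 and Gkn3 are 6 of the 32285 genes counted in single cells of 2 mouse pancreatic tumour samples. They were taken by name, and their raw counts of unique molecular identifiers (UMIs, 1 per captured RNA molecule) were read in cells that held 1000 or more UMIs from 500 or more genes, with no more than 20% of them mitochondrial. A cell was called epithelial, or inside the gate, when it held at least 5 UMIs of Krt8, Krt18, Krt19 and Epcam together, which encode 3 keratins and an adhesion molecule of simple epithelia. The genes were chosen with results of these data known, so every value here is a description and no test was made.

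The samples were pancreatic tumours of 6 week old KPPC mice, a genetically engineered model of pancreatic ductal cancer. 1 library came from vehicle treatment and 1 from takinib at 50 mg/kg, each over 14 days. Takinib is a small molecule that inhibits the kinase TAK1, encoded by Map3k7. The tissue was minced and dissociated with DNase-I and collagenase A, and the labels give neither the alleles behind the KPPC name nor the number of mice in a library. With 1 library per group there is no replicate check. Drug, library, software version, barcode filter, depth and the sex of the animals differed together and cannot be told apart.

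The vehicle library kept 9872 cells with a median of 3595 UMIs and the takinib library 26790 cells with a median of 3050 UMIs, and 400 cell barcodes occurred in both. The gate held 1675 vehicle cells with a median of 5950 UMIs and 1957 takinib cells with a median of 10685 UMIs. All 9 epithelial marker genes were detected there, with a summed level of 7834 in vehicle and 8170 in takinib, in counts per 1000000 UMIs (CPM). The neutrophil genes S100a8 and S100a9 summed to 81.0 CPM in vehicle gate cells and 12141 CPM in takinib gate cells, and at least 10 of their UMIs were in 15 vehicle and 1077 takinib gate cells. All 8 neutrophil markers were detected in both, and their part in the results was not tested beyond the values given without these cells. Xist without a Y-linked UMI was seen in 212 vehicle and 1786 takinib gate cells, and a Y-linked UMI without Xist in 809 vehicle and 0 takinib gate cells.

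Trefoil factors are small secreted peptides folded into cysteine-rich trefoil domains that are released with mucins and take part in the protection and repair of mucosal surfaces. In the stomach Tff1 marks surface mucous cells together with the mucin Muc5ac, Tff2 marks mucous neck and pyloric gland cells together with Muc6, and in the intestine Tff3 marks goblet cells together with Muc2. Gastrokines are secreted stomach proteins with a BRICHOS domain, of which Gkn1 and Gkn2 belong to the surface cells and Gkn3 to mucous neck cells, and genes of both families are known to appear in pancreatic precursor lesions with gastric features.

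In the mouse genome (GRCm38) the 6 genes form 2 groups. Tff3 (chr17:31125306-31129646), Tff2 (chr17:31141049-31144282) and Tff1 (chr17:31161395-31165277) lie on the minus strand within 40.0 kb. Gkn1 (chr6:87345650-87350942, minus strand), Gkn2 (chr6:87373357-87379497, plus strand) and Gkn3 (chr6:87383256-87388935, minus strand) lie within 43.3 kb. The bases from -250 to -31 before the RefSeq start site of the 3 gastrokine genes (GRCm38.p6) are shown because these neighbours were read in 2 different kinds of cell below. Capitals mark GATAA or its reverse complement TTATC, the core letters bound by GATA factors such as Gata4 and Gata6, which were detected in the gate. The regions are chr6:87350946-87351165 on the minus strand for Gkn1, chr6:87373115-87373334 on the plus strand for Gkn2 and chr6:87388966-87389185 on the minus strand for Gkn3, each written 5′ to 3′ on its own strand.
Gkn1: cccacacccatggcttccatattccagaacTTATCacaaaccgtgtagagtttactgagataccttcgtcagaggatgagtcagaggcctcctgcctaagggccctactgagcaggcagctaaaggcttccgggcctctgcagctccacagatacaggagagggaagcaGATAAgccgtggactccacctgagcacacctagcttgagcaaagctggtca
Gkn2: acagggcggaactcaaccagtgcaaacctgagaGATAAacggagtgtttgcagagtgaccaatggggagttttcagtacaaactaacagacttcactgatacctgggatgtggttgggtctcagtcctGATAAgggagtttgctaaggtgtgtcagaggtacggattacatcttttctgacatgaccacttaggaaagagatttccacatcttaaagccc
Gkn3: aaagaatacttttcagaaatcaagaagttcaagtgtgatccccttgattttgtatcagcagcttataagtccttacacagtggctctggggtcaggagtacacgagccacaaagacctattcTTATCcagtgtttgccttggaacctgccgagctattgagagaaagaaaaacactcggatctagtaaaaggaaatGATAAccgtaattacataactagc
Each of the 3 windows held 2 such matches, against at least 2 in 3.62% and at least 1 in 20.6% of 32851 windows of the same length in the promoter table. The matches began at -220 and -81 for Gkn1, at -217 and -122 for Gkn2 and at -128 and -54 for Gkn3. Of the other letters searched on both strands, TGTTTGC, a forkhead-type core, occurred 1 time each in Gkn2 and Gkn3 and not in Gkn1, against 3.85% of all windows. TGTTTAC was in none of the 3 windows (2.81% of all windows), and CACCC occurred 1 time, in Gkn1 (47.8% of all windows). The motifs do not overlap one another, and a match is a description of letters and not of binding.

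Part of the takinib library stood apart. After all 6 genes had been left out of clustering, the cluster of cells with the highest Muc5ac held 207 takinib barcodes of under 3000 UMIs, 59 of them in the gate. Their profiles over the other genes were nearly copies of each other: the spread between these barcodes over 188 genes was 1.18 times what counting alone gives, against at least 2.61 in 44 other sets of cells from 1 cluster and 1 library. The immunoglobulin gene Ighg3 was in 97.6% of them and in 0.794% of the other takinib cells. These barcodes carried a narrow range of Tff1, with 45.3 ± 10.2 UMIs each (SD over barcodes, lowest 23, highest 72). Gkn1 was at 14.3 ± 4.65 UMIs, Gkn2 at 14.2 ± 4.35 UMIs and Tff2 at 4.02 ± 2.07 UMIs, whereas Tff3 did not exceed 1 UMI and Gkn3 did not exceed 2 UMIs. In the same cluster the 30 larger takinib barcodes ranged from 11 to 4214 Tff1 UMIs and from 0 to 5890 Gkn2 UMIs. The 207 are called the uniform barcodes below, were picked out after their values had been seen, and were left out wherever stated.

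**Figure D1:**
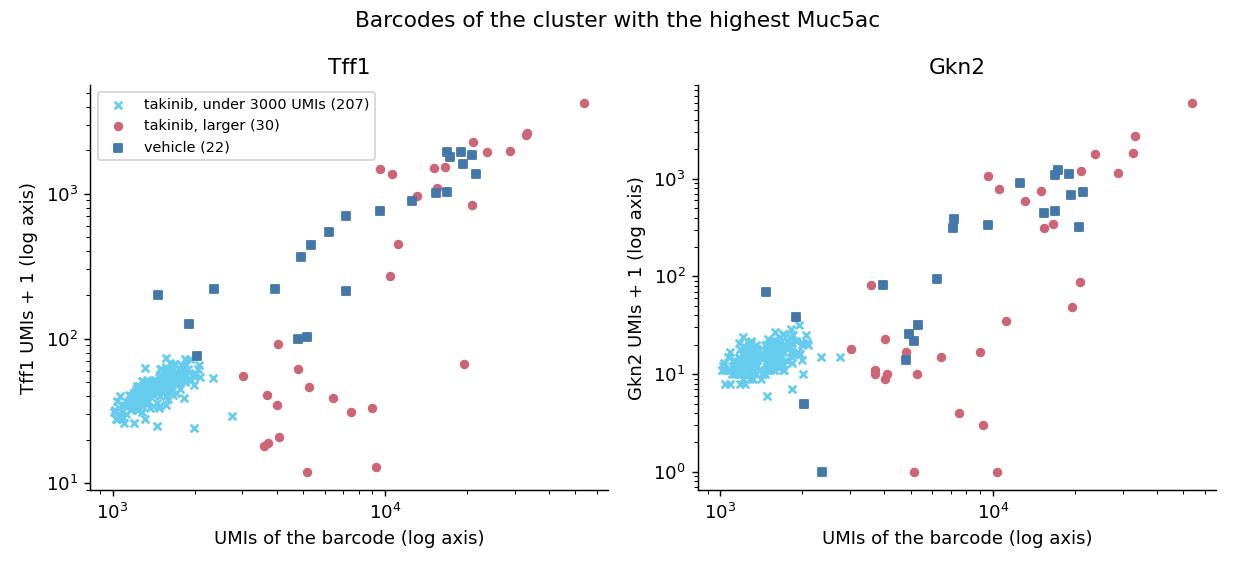
Tff1 (left) and Gkn2 (right) UMIs plus 1 against all UMIs of a barcode, both on log axes, for the cluster with the highest Muc5ac. Each point is 1 barcode. The 207 takinib barcodes under 3000 UMIs form 1 compact cloud, with 23 to 72 Tff1 UMIs, while the 30 larger takinib and 22 vehicle barcodes spread over a far wider range.

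Among the kept cells, transcripts of all 6 genes came mainly from epithelial cells. The gate held 17.0% of the vehicle cells and 7.30% of the takinib cells. Of each gene's UMIs in kept cells it held between 87.7% (Tff3) and 96.0% (Gkn1) in vehicle. In takinib it held between 83.6% (Tff1) and 92.2% (Tff3). Barcodes that were not kept are not in these shares. Vehicle barcodes with at least 100 and under 500 UMIs held 1265 Tff3 UMIs, against 1174 in the gate. Each other gene had fewer UMIs in those barcodes than in the gate, such as 21178 against 42053 for Tff1. Tff1 stood at 3384 CPM in vehicle gate cells and 96.3 CPM outside. In takinib it stood at 3448 CPM inside and 158 CPM outside, or 3345 and 97.1 CPM without the uniform barcodes. The 275 takinib cells of epithelial clusters outside the gate, which include uniform barcodes, had Tff1 at 7166 CPM, above the gate. Tff2 stood at 4530 CPM inside and 105.5 CPM outside in vehicle, and at 3925 and 112 CPM in takinib. The corresponding levels of Gkn1 were 1366 and 22.6 CPM in vehicle and 1338 and 45.0 CPM in takinib. Those of Gkn2 were 860 and 14.9 CPM, then 958 and 40.7 CPM, and those of Gkn3 were 934 and 22.5 CPM, then 766 and 20.1 CPM. The takinib values of these genes include the uniform barcodes. With and without them, Gkn1 made 12.0% and 9.49% of the 6 genes' summed takinib UMIs outside the gate, and Gkn2 10.8% and 7.77%. Tff3 was at 94.5 CPM inside and 5.21 CPM outside in vehicle, and at 11.8 and 0.234 CPM in takinib.

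A single UMI did not set expressing cells apart. At least 1 Tff1 UMI was in 35.1% (95% exact Clopper-Pearson interval 32.8 to 37.4) of vehicle gate cells and in 25.5% of vehicle macrophages, whose median was 3839 UMIs. In takinib the shares were 48.3% (46.1 to 50.6) of gate cells and 28.4% of macrophages with a median of 5937 UMIs. At least 1 Tff2 UMI was in 54.7% (52.3 to 57.2) of vehicle and 66.7% (64.6 to 68.8) of takinib gate cells, against 28.1% and 32.4% of macrophages. Outside the gate the 6 genes stood in similar proportions in the named non-epithelial classes. Tff1 made 35.5% of their summed UMIs in vehicle macrophages, 36.0% in fibroblasts and 36.9% in endothelial cells, while Tff2 made 39.2%, 38.4% and 38.4%. Over all 7 such vehicle classes Tff1 made 34.0% to 39.3% and Tff2 38.4% to 41.1%. The other cells outside the gate differed: Tff1 made 15.35% and Tff2 58.1% in 138 vehicle cells of unnamed clusters, and 68.3% and 19.6% in 140 vehicle cells of epithelial clusters. Vehicle barcodes with at least 100 and under 500 UMIs, too small to be kept, had 37.5% Tff1 and 38.0% Tff2, at levels of 937 and 951 CPM. Whether these barcodes hold free RNA or small cells was not tested. Intervals cover counting error alone.

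Few cells of the named non-epithelial classes outside the gate reached 5 UMIs, although a fixed count is reached more easily in deeper cells. In takinib gate cells without the uniform barcodes, the share with 5 Tff1 UMIs was 6.38% at 1000 to 4000 UMIs. It was 24.5% at 16000 UMIs or more. Tff1 reached 5 UMIs in 190 vehicle gate cells (11.3%, 9.86 to 13.0) and in 0.0405% of vehicle macrophages. In takinib it did so in 377 gate cells (19.3%), or 318 (16.8%) without the uniform barcodes, and in 0.194% of macrophages. Tff2 did so in 468 vehicle (27.9%) and 661 takinib gate cells (33.8%). The counts were 105 and 198 cells for Gkn1, 47 and 149 for Gkn2, 283 and 278 for Gkn3, and 23 and 12 for Tff3. Without the uniform barcodes the takinib counts were 139 cells for Gkn1 and 90 for Gkn2. Outside the gate, no named non-epithelial class of at least 100 cells had 5 UMIs of any of the 6 genes in more than 0.840% of its cells.

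**Figure D2:**
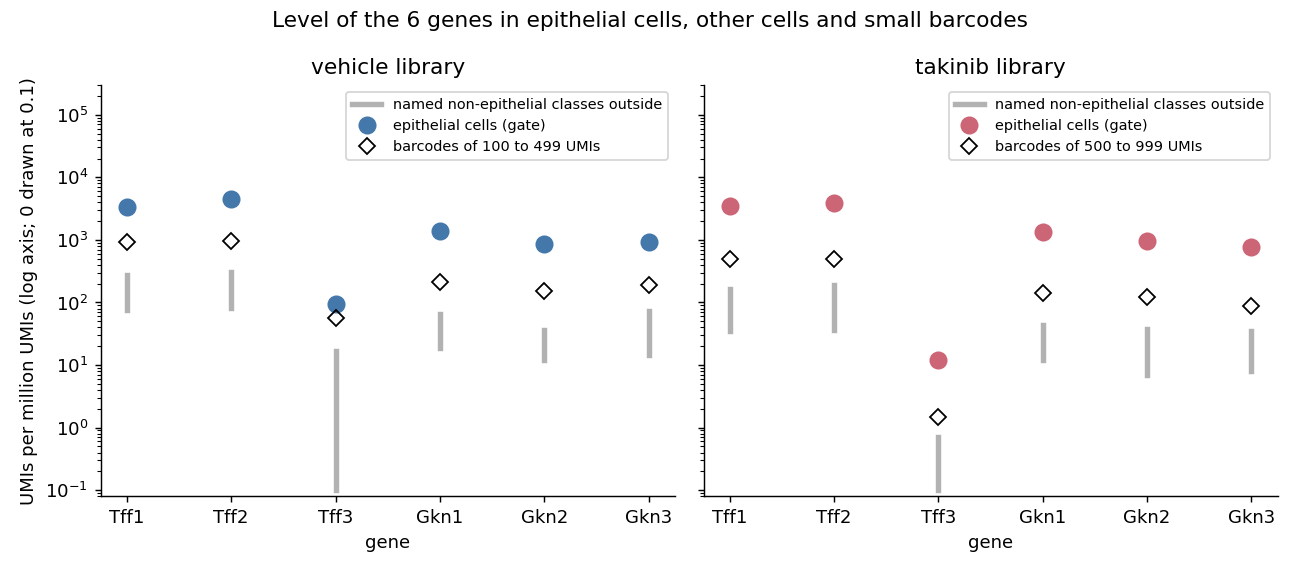
Level of each gene in CPM on a log axis, in the vehicle (left) and takinib (right) library. Filled circles are gate cells, grey bars span the lowest to the highest named non-epithelial class outside the gate (0 drawn at 0.1), and open diamonds are barcodes too small to be kept. All 6 genes were higher in gate cells than in any named non-epithelial class outside, and the small barcodes lay between them.

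Depth differed between the gates, so detection was also read at matched depth without the uniform barcodes. Among gate cells of 8000 to 16000 UMIs, of which there were 461 in vehicle and 691 in takinib, Tff2 reached 5 UMIs in 34.5% (30.2 to 39.0) and 36.0% (32.5 to 39.7). For Tff1 the shares were 18.7% (15.2 to 22.5) and 17.4% (14.6 to 20.4). Gkn1 gave 11.1% (8.35 to 14.3) and 7.38% (5.54 to 9.60), and Gkn2 gave 4.77% (3.01 to 7.14) and 3.91% (2.59 to 5.63). These intervals overlap between the libraries at this depth, but they cover counting error alone. Cells of 1 library are not replicates, so neither overlap nor separation here is a test of the treatment. Gkn3 gave 24.1% (20.2 to 28.2) in vehicle and 17.2% (14.5 to 20.2) in takinib, and Tff3 2.17% (1.05 to 3.95) and 0.579% (0.158 to 1.48), pairs of intervals that meet or overlap at their edges. In the other 3 depth ranges, the intervals were apart for 2 pairs. Tff2 was in 24.2% (16.8 to 32.8) of 120 vehicle and 39.5% (35.5 to 43.7) of 567 takinib cells of at least 16000 UMIs. That range has no upper limit, so depth was not matched within it. Gkn3 was in 18.7% (15.7 to 22.1) of 603 vehicle and 11.3% (8.34 to 14.9) of 389 takinib cells of 4000 to 8000 UMIs.

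A few cells held much of each gene's transcripts. 50% of all vehicle Gkn2 UMIs in the gate came from 6 cells and 50% of those in takinib from 4 cells. For Gkn1 the numbers were 7 and 6 cells, for Tff1 15 and 24, for Gkn3 35 and 22, and for Tff2 46 and 39. The highest single cell had 7069 Gkn1 UMIs in takinib and 2017 in vehicle. Tff2 filled up to 22.8% and Tff1 up to 15.4% of all UMIs of 1 takinib cell, with 13.1% and 15.03% as the highest shares in vehicle. The levels of Gkn1 and Gkn2 in the gate thus rested on a handful of cells.

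Which of the 6 genes a cell carried went with its mucin. Gate cells were grouped by at least 2 UMIs of only 1 of Muc5ac, Muc6 and Muc2, and the uniform barcodes were left out. In the 35 vehicle and 43 takinib cells with Muc5ac, the mucin of the gastric surface, Tff1 stood at 53282 and 40482 CPM, Gkn1 at 29262 and 30924 CPM and Gkn2 at 22496 and 25042 CPM. In the 110 and 167 cells with Muc6, the mucin of neck and pyloric glands, these 3 genes were far lower, with Tff1 at 3496 and 2600 CPM, Gkn1 at 611 and 408 CPM and Gkn2 at 153 and 209 CPM. Gkn3 had the opposite distribution, at 1058 and 616 CPM with Muc5ac and 6702 and 5625 CPM with Muc6. Tff2 was high in both groups, at 16487 and 10782 CPM with Muc5ac and 22080 and 24386 CPM with Muc6. The order of the 2 groups was the same in both libraries for these 5 genes.

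Tff3 belonged to neither group in the vehicle library. It stood at 5.24 CPM with Muc5ac and 9.26 CPM with Muc6, and at 2351 CPM (2214 to 2495, exact Poisson interval) in the 65 vehicle cells with Muc2, the secreted mucin of intestinal goblet cells. In those Muc2 cells Tff1 stood at 331 CPM, Tff2 at 301 CPM, Gkn1 at 30.1 CPM, Gkn2 at 8.59 CPM and Gkn3 at 23.6 CPM. No takinib gate cell held 2 Muc2 UMIs. Taken as 3 counts over the total, 0 of 1957 cells allows a share of up to 0.153% of cells with such UMIs, which limits detection and not expression. Takinib gate cells with none of the 3 mucins had Tff3 at 11.8 CPM. The 1458 vehicle and 1678 takinib gate cells without any of the 3 mucins still had Tff2 at 2404 and 1398 CPM and Tff1 at 1518 and 2011 CPM.

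**Figure D3:**
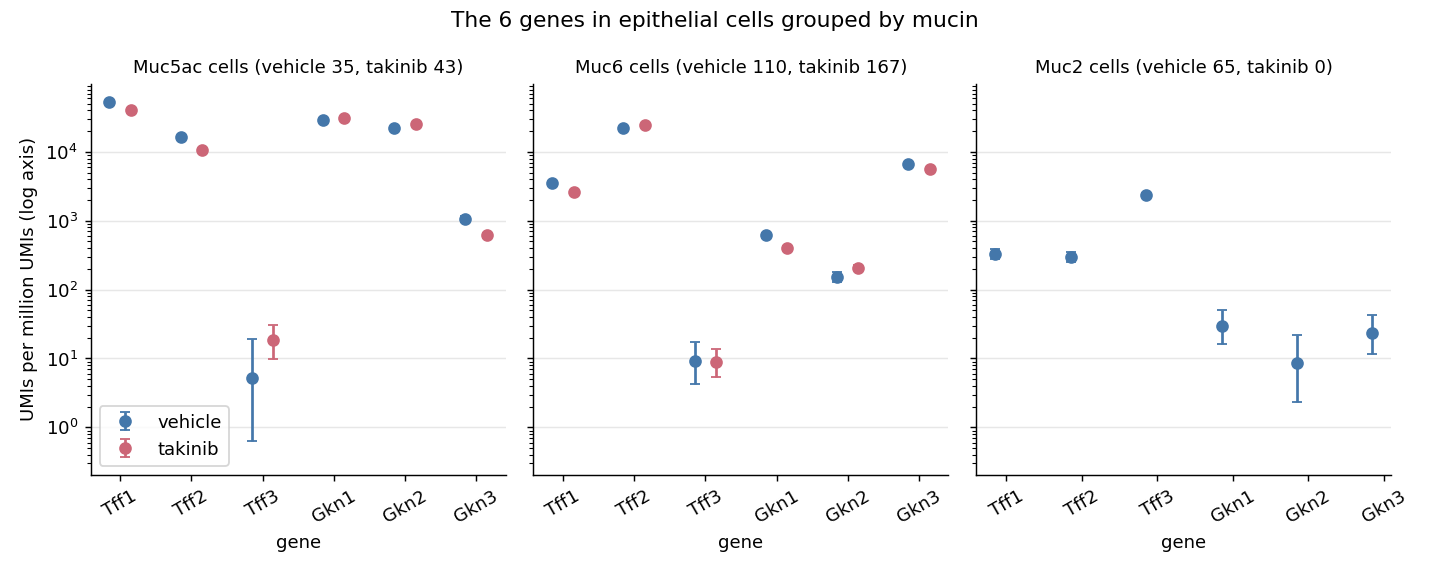
Level of the 6 genes in CPM on a log axis in gate cells with Muc5ac (left), Muc6 (middle) or Muc2 (right), vehicle in blue and takinib in red. Points are sums over the cells of a group and bars are exact 95% Poisson intervals, which cover counting error alone. Tff1, Gkn1 and Gkn2 peak with Muc5ac, Gkn3 with Muc6 and Tff3 with Muc2, a group with 65 vehicle and 0 takinib cells.

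Within single cells Tff1 and Tff2 were mixed in different proportions. The uniform barcodes were left out of all shares in this paragraph. Over gate cells with at least 20 UMIs of both together, Tff1 made a median of 78.1% (quartiles 65.1 and 87.1) of them in 33 vehicle Muc5ac cells and 82.0% (58.6 and 91.9) in 36 takinib Muc5ac cells. In Muc6 cells the medians were 2.90% (0.120 and 10.1) over 85 vehicle and 2.74% (0.345 and 9.54) over 120 takinib cells. Cells in which Tff1 made over 90% numbered 13 of 354 in vehicle (3.67%) and 65 of 492 in takinib (13.2%), 48 of the latter without any of the 3 mucins. Gkn1 and Gkn2 were closer to even in Muc5ac cells. Gkn1 made a median of 56.8% (50.9 and 70.4) of their summed UMIs in 28 vehicle Muc5ac cells and 58.7% (52.0 and 66.7) in 29 takinib Muc5ac cells. Over all gate cells with 20 such UMIs it made a median of 71.6% (55.6 and 95.1) in 61 vehicle and 69.1% (57.4 and 84.4) in 97 takinib cells. It made over 90% in 18 and 17 of them (29.5% and 17.5%) and under 10% in none.

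**Figure D4:**
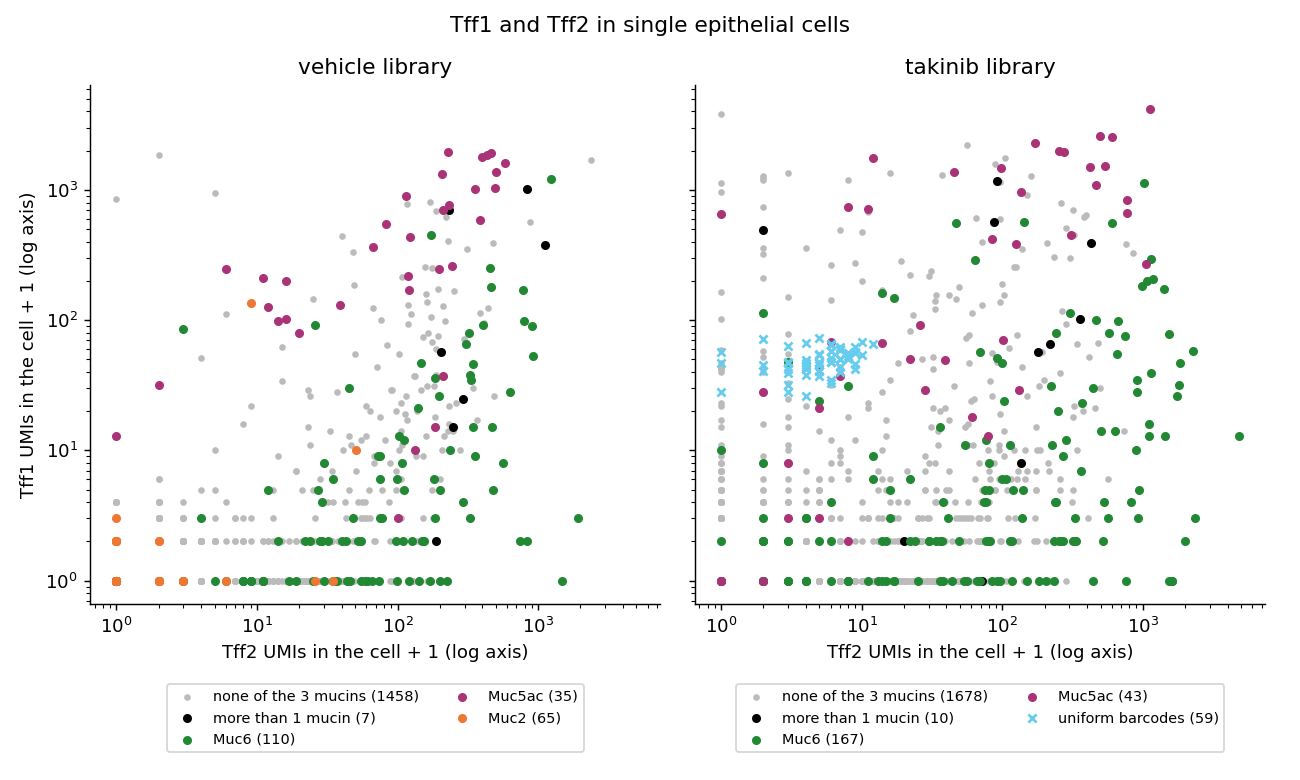
Tff1 against Tff2 UMIs plus 1 in each gate cell, on log axes, for the vehicle (left) and takinib (right) library. Colours give the mucin of the cell, and crosses are the 59 uniform barcodes inside the gate. Muc5ac cells lie at high Tff1, Muc6 cells at high Tff2 with little or much Tff1, and the vehicle Muc2 cells near the origin.

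At 5 UMIs, most Gkn1 and Gkn2 cells also had Tff1, and most Gkn3 cells had Tff2. Of the 105 vehicle cells with at least 5 Gkn1 UMIs, 100 (95.2%, 89.2 to 98.4) also had at least 5 Tff1 UMIs, a level that 11.3% of all gate cells reached. In takinib it was 190 of 198, or 131 of 139 without the uniform barcodes. All 47 vehicle and all 149 takinib Gkn2 cells had Tff1, and 46 of 47 and 144 of 149 had Gkn1. The 149 include the 59 uniform barcodes in the gate, nearly copies of 1 profile with at least 5 Gkn2 and 23 Tff1 UMIs each. The reverse was less complete, with Gkn1 in 52.6% and Gkn2 in 24.7% of the 190 vehicle Tff1 cells. Tff2 was in 260 of 283 vehicle (91.9%) and 232 of 278 takinib Gkn3 cells (83.5%), against 27.9% and 33.8% of all gate cells. Tff1 was in 41.3% and 43.9% of the Gkn3 cells, against 11.3% and 19.3% of all gate cells. Both genes were thus more frequent in Gkn3 cells than in the gate. With 1 UMI as the limit, 88.9% of 522 vehicle and 89.8% of 531 takinib Gkn3 cells had Tff2, against 54.75% and 66.73% of all gate cells.

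In vehicle, the 23 cells with at least 5 Tff3 UMIs (lowest 5, median 14, highest 228) all had at least 2 Muc2 and at least 5 Spink4 UMIs. Spink4 encodes a protease inhibitor of goblet cells. None of the 23 had 5 UMIs of any other of the 6 genes. They held 1057 of the 1174 Tff3 UMIs in the vehicle gate (90.03%). The 12 takinib cells (lowest 5, median 9, highest 39) were of another kind. None had 2 Muc2 UMIs and 1 had 5 Spink4 UMIs, while 9 had at least 5 Tff1 and 10 at least 5 Tff2 UMIs. Takinib gate cells with at least 5 Spink4 UMIs numbered 45, of which 5 had a Tff3 UMI, against 47 of 81 in vehicle.

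No gate cell had all 6 genes at 5 UMIs. In vehicle 1153 gate cells (68.8%) had none of the 6 at 5 UMIs, 187 had 1, 182 had 2, 67 had 3, 66 had 4 and 20 had 5. In takinib without the uniform barcodes 1159 cells (61.1%) had none, 336 had 1, 221 had 2, 77 had 3, 65 had 4 and 40 had 5. Cells with exactly 2 were 10.9% of the vehicle gate and 11.6% of the takinib gate.

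Clusters made within the gate without the 6 genes placed them in a few groups, and clusters are a description since they were built from these cells. The takinib shares of cells and UMIs here leave out the uniform barcodes. The cluster led by Pgc, Muc5ac, Psca and Mucl3 had 20 vehicle and 18 takinib cells, 1.19% and 0.948% of the gate. It held 59.0% and 69.1% of the Gkn1 UMIs, 78.2% and 80.5% of the Gkn2 UMIs and 40.1% and 30.2% of the Tff1 UMIs. A second cluster, led by Lypd8, 2210407C18Rik, Clca1 and Psca (41 and 34 cells), added 37.2% and 34.6% of Tff1. The cluster led by Pgc, Muc6, Cblif and Clps (26 and 39 cells) had Tff2 at 43901 and 61291 CPM and Gkn3 at 13410 and 11807 CPM, its Gkn1 at 123 and 571 CPM. Cblif encodes gastric intrinsic factor and Pgc a pepsinogen.

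The largest source of Tff2 (35.6%) and Gkn3 (43.8%) UMIs in the vehicle gate was a bigger cluster. It was led by Npy, Pyy, Reg3b and Muc6, with 358 vehicle and 56 takinib cells. The cluster led by Mptx1, Spink4, Muc2 and Zg16 had 86 vehicle and 0 takinib cells. It held 88.8% of the Tff3 UMIs in the vehicle gate. Clusters led by genes of the matrix and of mesenchymal cells differed. In the one led by Tnc, Igfbp4 and Fn1 (254 vehicle cells) Tff2 stood at 107 CPM and Gkn3 at 35.6 CPM. In the one led by Prl2c2, Vim and Tm4sf1 (145 vehicle and 41 takinib cells) Tff1 stood at 40.8 and 39.9 CPM and Tff2 at 81.6 and 15.2 CPM, below the levels outside the gate. The one led by Dcn, Mgp, Timp1 and Sparc (59 and 44 cells) was not as low, with Tff1 at 1475 and 475 CPM and Tff2 at 2403 and 738 CPM. Its Tff3 stood at 105.9 and 1.07 CPM. These levels are sums that a few cells can carry, and the vehicle Tff3 value rested on 53 UMIs.

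Cells with transcripts of the tumour suppressor gene Cdkn2a carried Tff1 and Tff2 below the levels of the whole gate. The uniform barcodes were left out of these cells. In the 802 vehicle gate cells with at least 2 Cdkn2a UMIs Tff2 stood at 1533 CPM and Tff1 at 907 CPM. The whole vehicle gate had 4530 and 3384 CPM. In 1076 takinib cells they stood at 2554 and 1957 CPM, against 3925 and 3448 CPM in the whole takinib gate. In vehicle 10 of these cells held 73.9% of their Tff1 UMIs, and in takinib 45.1%. Without cells of the 3 mucins, Tff2 stood at 896 and 1117 CPM. At least 5 Tff2 UMIs were in 14.6% (12.2 to 17.2) of the vehicle and 31.1% (28.4 to 34.0) of the takinib Cdkn2a cells. All gate cells gave 27.9% and 33.8%. Median depths of the Cdkn2a cells were 7844 and 14335 UMIs. Thinned to 1000 UMIs, at least 1 Tff2 UMI was in 19.6% and 28.7%. Muc6 cells with Cdkn2a numbered 33 and 92, and had Tff2 at 11750 and 16174 CPM and Gkn3 at 4201 and 4198 CPM. Muc6 cells without Cdkn2a numbered 84 and 85, with Tff2 at 30265 and 35172 CPM and Gkn3 at 8381 and 8143 CPM, higher in both libraries.

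For Tff1 and all 3 gastrokines the gene detected most alike was another of the 6, and for Tff2 it was Dmbt1. Likeness was the phi coefficient of detection in gate cells thinned to 1000 UMIs. It was taken as the smaller of the 2 libraries over 7948 genes without the uniform barcodes. It is a description across cells that share a library and may share free RNA. For Tff1 the nearest was Gkn1 (0.47), then Gkn2 (0.36), 2210407C18Rik (0.32), Tff2 (0.30) and Phgr1 (0.27). For Gkn1 it was Gkn2 (0.47), followed by Tff1 (0.47), Mucl3 (0.37), Muc5ac (0.32) and 2210407C18Rik (0.30), and for Gkn2 it was Gkn1, Mucl3 (0.38), Psca (0.38), Tff1 and Muc5ac (0.33). For Tff2 the order was Dmbt1 (0.41), Reg1 (0.37), Gkn3 (0.36), 2210407C18Rik (0.33) and Reg3b (0.31). For Gkn3 it was Tff2 (0.36), 2210407C18Rik (0.29), Muc6 (0.28), Reg1 (0.26) and Dmbt1 (0.25). Reg1 and Reg3b encode lectins of the Reg family. Tff3 was in too few thinned takinib cells to be placed.

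Between the libraries, Tff3 was the 1 member of 6 whose level in the gate differed by more than a log2 ratio of 1. It stood at 94.5 CPM in vehicle and 11.8 CPM in takinib, a log2 ratio of takinib over vehicle of -2.26 (-2.38 to -2.14) with 10 CPM added to both. Among 12923 genes with at least 50 UMIs in a gate, 1.62% were below -1 and 2.48% above 1, and the median ratio of all was -0.09. The value rested on which vehicle cells were counted. In the 212 vehicle gate cells with Xist and no Y-linked UMI Tff3 stood at 9.55 CPM, and against those cells the ratio was 0.16. Of the 66 vehicle gate cells with at least 2 Muc2 UMIs, with or without another mucin, 2 were of that kind, 35 had a Y-linked UMI and no Xist, 26 had neither and 3 had both.

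The other 5 ratios were small: 0.03 (0.01 to 0.04) for Tff1, -0.21 (-0.22 to -0.19) for Tff2, -0.03 (-0.06 to -0.003) for Gkn1, 0.15 (0.12 to 0.19) for Gkn2 and -0.28 (-0.32 to -0.25) for Gkn3. Without gate cells of at least 10 S100a8 and S100a9 UMIs, the ratio of Tff1 became 0.46 and that of Tff2 0.18. With every cell weighing the same, Tff1 gave 0.67, Gkn1 0.47 and Gkn2 0.69, and without the uniform barcodes 0.29, 0.11 and 0.16. Against the vehicle cells with Xist alone, Gkn1 gave 2.101 and Gkn2 2.82. Those 212 cells held 186 Gkn2 UMIs, 98.4% of them in 10 cells. Their Gkn3 ratio was -0.12.

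**Figure D5:**
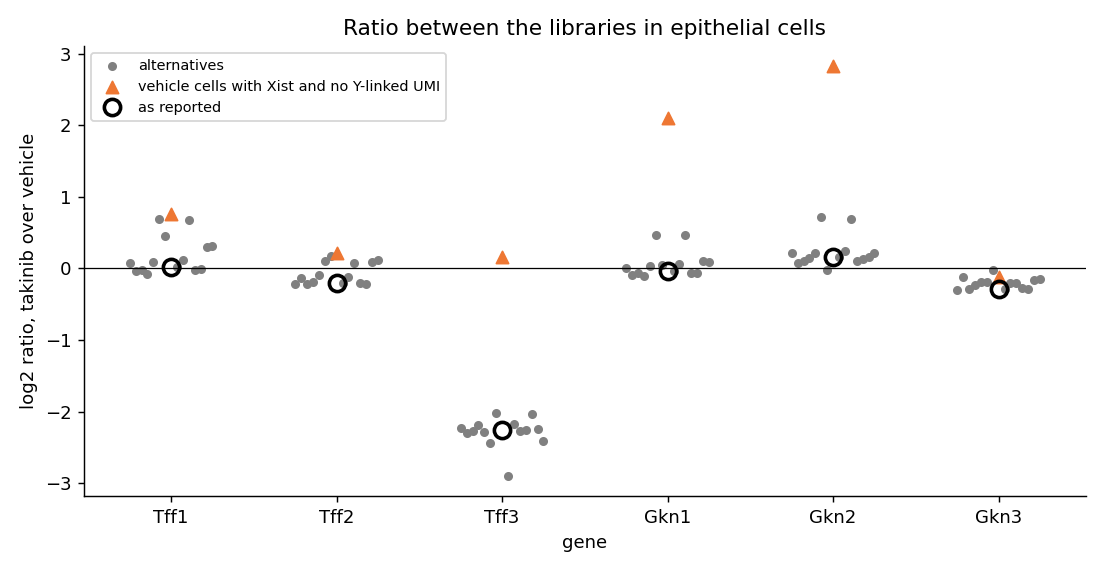
Log2 ratio of takinib over vehicle for each gene in gate cells. Open circles are the reported values, grey dots the other ways of filtering, scaling and counting, and triangles the values against vehicle cells with Xist and no Y-linked UMI. Tff3 lies below -2 except at its triangle (0.16), and the triangles of Gkn1 and Gkn2 lie above 2.

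Cells at the edge of the gate had Tff1 and Tff2 below the levels of the whole gate. The place of the edge still shifted the small ratios: Tff1 gave 0.069 with a gate of 3 UMIs and -0.037 with 10. In 217 vehicle cells with 3 or 4 gate UMIs, just outside, Tff1 stood at 483 CPM and Tff2 at 479 CPM. In the 126 with 5 or 6, just inside, they stood at 502 and 2692 CPM. Without the uniform barcodes, the 284 takinib cells just outside had 301 CPM of Tff1 and 332 CPM of Tff2, and the 121 just inside had 378 and 444 CPM.

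Genes of the same tissues were read from fixed lists in the gate, where a gene was comparable with at least 50 UMIs in 1 of the gates. Over all 12923 comparable genes, 2.48% were above a log2 ratio of 1 and 1.62% below -1. Of 10 comparable genes of gastric surface and pit cells 0 passed a log2 ratio of 1 in either direction (median 0.05). Of 8 of the neck and pyloric gland 1 was above (Pgc, 219 CPM in vehicle and 482 CPM in takinib) and 1 below (the stem cell gene Lgr5, 20.6 and 3.76 CPM), with a median of 0.18. Of 12 intestinal and goblet genes 8 were below -1 and 0 above, with a median of -1.43, also with genes at 0 set to 3 UMIs. Muc2 stood at 343 CPM in vehicle and 0.240 CPM in takinib, Spink4 at 858 and 37.4 CPM, the lectin Zg16 at 95.5 and 4.24 CPM, and Reg4 at 46.8 CPM and 0 UMIs. That list summed to 2047 and 410 CPM. Of 9 genes specific to the stomach 3 were comparable, with a median of 0.21. The hormone gene Ghrl was above 1 (4.75 CPM in vehicle and 115.9 CPM in takinib) and Gast, which encodes gastrin, below -1 (21.7 and 0.560 CPM), while Atp4a, a proton pump subunit of parietal cells, had 23 and 93 UMIs. The other 6 had no more than 5 UMIs in a library, among them Atp4b with 0 and 3 and the lipase gene Lipf with 0 and 0.

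The ductal and carcinoma lists were read beside the same shares over all genes, 2.48% above 1 and 1.62% below -1. Of 9 ductal genes 2 were above 1, Ambp (23.0 and 83.4 CPM) and Slc4a4 (97.1 and 212 CPM), and 0 below -1, with a median of -0.15. Of 9 genes of carcinoma and the p53 axis 2 were above, Ly6d (63.7 and 190.9 CPM) and Cdkn1a (87.2 and 242 CPM), and 1 below, Vim (1306 and 427 CPM), with a median of 0.05.

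Among partners and receptors, 2 of 9 comparable genes were below -1, Muc2 and Fcgbp, and 0 above 1, with a median of -0.20. Fcgbp, a mucus protein that binds Tff3, stood at 72.8 CPM in vehicle and 20.4 CPM in takinib gate cells. Dmbt1, a scavenger-receptor protein of mucus, stood at 3020 and 4808 CPM. Cxcr4, a chemokine receptor reported to respond to Tff2, was higher outside the gate, at 51.1 and 89.5 CPM, than inside, at 8.69 and 21.4 CPM. Of 15 comparable regulators of gastric epithelium 0 passed 1 in either direction (median -0.13). Gata6 stood at 36.4 CPM in vehicle and 51.6 CPM in takinib and Gata4 at 17.6 and 13.6 CPM.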

How the data were processed

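Single-cell RNA was measured in 1 vehicle and 1 takinib library. The authors deposited raw UMI counts per gene and barcode. The submitters' processing notes name mm10, Cell Ranger 2.1.1, bcl2fastq, STAR 2.0.4b, Subread and featureCounts 1.45, while the matrix headers give Cell Ranger 4 (vehicle) and 6.1.1 (takinib). The vehicle file lists 704261 barcodes and the takinib file 34158, none under 500 UMIs, with 80850334 and 139292875 UMIs in all.

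Cells with at least 1000 UMIs, 500 genes and at most 20% mitochondrial UMIs were kept. CPM are UMIs summed over a set of cells per 1000000 of all its UMIs, and ratios are log2 with 10 CPM added. Intervals are exact at 95%, and the limit given for a count of 0 is 3 counts over the total. Both libraries were clustered with scanpy 1.11.5 (2000 variable genes without the 6 members, 30 components, 15 neighbours, Leiden resolution 1). Classes were named from fixed markers, so names are rebuilt and may differ from the authors'. Thinning drew 1000 UMIs per cell. Doublets were kept, and removal with scanpy's Scrublet was an alternative (314 vehicle cells, and the top 6% or 1607 cells in takinib, where the automatic limit marked 0.00373%). Ratio, interval, thinning and phi code was checked on simulated data.

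The members and lists were chosen with earlier results of these data known. All 6 members are named, list genes are named past a log2 ratio of 1 (at most 4 per list) or where a partner, receptor or regulator is described, and the 5 genes of highest phi are named per member. Protein sequences were not used here, and 3 of the 6 genes matched the RefSeq promoter table. The result of 1 further list is not reported here.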

Additional observations from a re-analysis of the deposited data

How the results depend on the processing

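No paired analysis was possible because each group has 1 library, and for the same reason no library could be left out. A value counted as moved when it left its own counting interval at 95%, which covers counting error alone, so small shifts count. Across 17 alternatives, 87 of 159 values of the 6 log2 ratios and of the co-detection shares moved, as did 55 of 138 values of detection. The ratio of Tff3 kept its sign under every alternative but 1 and stayed at -2.01 or below. The exception was the comparison with vehicle cells holding Xist and no Y-linked UMI, which turned it to 0.16. The ratios of the other 5 genes are near 0, and those of Tff1, Tff2, Gkn1 and Gkn2 changed sign with the setting.

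With a gate of 3 UMIs the ratios were 0.069 (Tff1), 0.0078 (Gkn1) and 0.21 (Gkn2), and with a gate of 10 UMIs -0.037 (Tff1), -0.13 (Tff2), -0.088 (Gkn1), 0.082 (Gkn2) and -0.12 (Gkn3). From 2000 UMIs and 1000 genes upward they were -0.022 (Tff1), -0.069 (Gkn1) and 0.11 (Gkn2). At most 10% mitochondrial UMIs gave -0.080 (Tff1), -0.19 (Tff2), -0.10 (Gkn1) and -0.23 (Gkn3). Removing called doublets gave 0.092 (Tff1), -0.098 (Tff2), 0.038 (Gkn1), 0.21 (Gkn2) and -0.18 (Gkn3). Thinning to 1000 UMIs gave 0.69 (Tff1), 0.099 (Tff2), -2.43 (Tff3), 0.47 (Gkn1), 0.72 (Gkn2) and -0.19 (Gkn3). Without cells of at least 10 S100a8 and S100a9 UMIs they were 0.46 (Tff1), 0.18 (Tff2), -2.01 (Tff3), 0.043 (Gkn1), -0.025 (Gkn2) and -0.025 (Gkn3). Against vehicle cells with Xist alone they were 0.76 (Tff1), 0.21 (Tff2), 0.16 (Tff3), 2.101 (Gkn1), 2.82 (Gkn2) and -0.12 (Gkn3). Centring on the median gene, a shift of 0.0858, gave 0.11 (Tff1), -0.12 (Tff2), 0.056 (Gkn1), 0.24 (Gkn2) and -0.20 (Gkn3). The mean of per-cell CPM gave 0.67 (Tff1), 0.074 (Tff2), 0.47 (Gkn1), 0.69 (Gkn2) and -0.20 (Gkn3). A pseudocount of 1 CPM gave -2.90 for Tff3. The cause of these shifts was not tested.

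4 alternatives were chosen after seeing the data. Without the uniform barcodes the ratios were -0.017 (Tff1), -0.063 (Gkn1) and 0.11 (Gkn2), and without barcodes found in both libraries -0.0043 (Tff1), -2.04 (Tff3) and -0.062 (Gkn1). The mean of per-cell CPM without the uniform barcodes gave 0.29 (Tff1), 0.087 (Tff2), 0.11 (Gkn1) and -0.16 (Gkn3). Thinning without them gave 0.31 (Tff1), 0.11 (Tff2), -2.41 (Tff3), 0.088 (Gkn1), 0.21 (Gkn2) and -0.15 (Gkn3).

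At 1 UMI, Gkn2 was in 28.6% of vehicle and 46.9% of takinib Gkn1 cells. The takinib share became 53.4% with a gate of 3 UMIs, 40.3% with a gate of 10, 38.9% from 2000 UMIs and 1000 genes upward, 39.6% without S100a8 and S100a9 cells and 38.8% without the uniform barcodes. The vehicle share was 21.6% among cells with Xist alone. Thinning gave 34.1% in vehicle and 63.4% in takinib, with Tff1 in 84.6% of takinib Gkn1 cells and Tff2 in 84.4% of vehicle and 78.0% of takinib Gkn3 cells, the last 77.7% without the uniform barcodes. At 2 UMIs, vehicle Gkn1 cells had Tff1 in 88.7% and Gkn2 in 41.3%, takinib Gkn1 cells 92.3% and 62.4%, and vehicle Gkn3 cells had Tff2 in 92.5%. At 5 UMIs the vehicle shares were 95.2%, 43.8% and 91.9%, and the takinib shares 96.0%, 72.7% and 83.5%.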
